A study of Arabidopsis thaliana with 8 samples.

Results

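The CLV, BAM and RPK receptors are 8 genes that were chosen by name: CLAVATA 1 (CLV1, AT1G75820), CLAVATA 2 (CLV2, AT1G65380), CORYNE (CRN, AT5G13290), BARELY ANY MERISTEM 1 (BAM1, AT5G65700), BAM2 (AT3G49670), BAM3 (AT4G20270), RECEPTOR-LIKE PROTEIN KINASE 1 (RPK1, AT1G69270) and RPK2 (AT3G02130). They are 8 of the 33668 features in the tables, of which 32222 are nuclear genes. Their transcripts were measured by single-nucleus mRNA-sequencing (snRNA-seq) with Smart-seq2 libraries, which cover whole transcripts and carry no molecular identifiers. Nuclei came from Arabidopsis thaliana embryos at the globular stage, in the wild-type accession Col-0, and were sorted for DAPI stain and GFP onto 8 plates of 93 wells. Growth notes name plants with pWOX2::H2B-GFP and pWOX2::tdTomato-RCI2b (pWOX2::NLS-GFP) or no transgenes, and every sorted nucleus had passed the GFP gate, so the WOX2 promoter decided which nuclei were collected. All plates are of 1 condition, so groups of nuclei were compared within plates, with the plates as replicates.

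CLE peptides are small secreted signals, and plants read them through receptors with leucine-rich repeats outside the cell. CLV1, BAM1, BAM2 and BAM3 are receptor kinases of 1 family. CLV2 has the outer repeats but no kinase, and CRN has a kinase-like part but almost no outer part, so that they act as a complex. RPK2 is a further receptor kinase of the shoot meristem pathway, in which CLV3 peptide restricts the stem cell factor WUS, and RPK1 and RPK2 are needed together for pattern formation in the embryo.

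Related receptors share sequence, and this matters for which reads can be assigned. The authors' Kallisto counts rest on words of 31 bases. CLV1, CLV2, BAM3 and RPK2 shared no such word with any other annotated gene. BAM1 shared 11 of 3660 words, all of them with BAM2, and they form 1 identical run of 41 bases in the part that encodes the kinase. That run is shorter than the reads of 50 bases. It is shown here with its surroundings because it is the only place where BAM1 and BAM2 reads could be confused. The windows lie in coding sequence at chr5:26284533-26284647 and chr3:18420415-18420529, both on the plus strand (RefSeq, TAIR10.1), and capitals mark the 12 of 115 bases that differ.
BAM1: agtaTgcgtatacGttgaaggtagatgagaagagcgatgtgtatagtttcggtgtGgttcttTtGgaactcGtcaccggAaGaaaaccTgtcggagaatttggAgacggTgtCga
BAM2: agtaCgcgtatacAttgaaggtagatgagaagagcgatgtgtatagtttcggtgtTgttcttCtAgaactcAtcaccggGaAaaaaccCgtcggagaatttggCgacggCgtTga

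CLV1 and BAM3 share their longest coding run at a kinase position as well. Its 29 bases fall short of a word, so no read is shared there. It lies at chr1:28464131-28464159 on the minus strand in CLV1 and at chr4:10952372-10952400 on the plus strand in BAM3.
CLV1 and BAM3: catgttgctgattttgggcttgctaagtt

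Overlapping genes on the opposite strand were a larger limit, because Smart-seq2 reads do not keep strand. On chromosome 1, RPK1 (26040689 to 26042741, minus strand) overlaps the non-coding gene AT1G09053 over 1647 bases and shared 1617 of its 1984 words with it. AT1G09053 had a count in 3.37% of retained nuclei, so RPK1 counts cannot be told apart from it. On chromosome 3, BAM2 (18417568 to 18421263, plus strand) overlaps the non-coding gene AT3G49668 over 757 bases, and that gene was found in 0.374% of nuclei. On chromosome 5, CRN (4252842 to 4255378, minus strand) overlaps AK-LYS1 over 423 bases, and AK-LYS1 was found in 24.3% of nuclei. The values of these 3 genes carry that uncertainty. The other members lie on chromosome 1 (CLV1, 28463344 to 28466971, minus strand; CLV2, 24286742 to 24289329, plus strand), chromosome 5 (BAM1, 26281642 to 26285413, plus strand), chromosome 4 (BAM3, 10949573 to 10953113, plus strand) and chromosome 3 (RPK2, 380350 to 384582, plus strand).

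Of 744 wells, 534 had at least 100000 counts and 1000 detected features and were retained, 46 to 83 per plate, with a median of 453003 counts and 2469 features. The retained nuclei were clustered without the members and without the pathway genes listed further on, and clusters were named from markers. A vascular-like cluster (59 nuclei) was led by AGO10, a quiescent-center-and-columella-like cluster (39) by JKD, WOX5 and WIP4, and the 2 dividing-like clusters (76) by genes such as TPX2 and POK1. A cluster of 105 nuclei had replication markers but PDF1, a protoderm gene, and no replication marker among its 10 leading genes. These 105, the dividing-like and the vascular-like nuclei make the 240 embryo-proper-like nuclei. Of 2 suspensor-like clusters, A (37 nuclei) had 6 and B (68) had 9 of 9 suspensor markers more often than the rest, but neither had one among its 10 leading genes. Seed-coat-like nuclei (81) had markers of the seed coat, a maternal tissue, although they had passed the GFP gate, and 69 nuclei stayed unnamed. At clustering resolution 2 there were 64 seed-coat-like and 257 embryo-proper-like nuclei, so the size of both groups depends on that setting. BAN, a seed coat gene, had a count in 87.7% of seed-coat-like nuclei (median 515108 counts) and in 60.8% of embryo-proper-like nuclei (median 455951 counts), so a share of nuclei with a count does not alone show expression.

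CRN was by far the most widely detected member. It had at least 1 count in 467 of 534 nuclei (87.5%), against 126 (23.6%) for BAM1, 88 (16.5%) for RPK2, 57 (10.7%) for RPK1, 53 (9.93%) for BAM2, 23 (4.31%) for CLV1, 19 (3.56%) for BAM3 and 18 (3.37%) for CLV2. As a level per length, in mean CPM (counts scaled to the same total in every nucleus) per kilobase of transcript over retained nuclei, the order was CRN with 37.3, BAM1 with 23.6, RPK2 with 9.68, RPK1 with 8.26, BAM2 with 5.40, BAM3 with 3.17, CLV1 with 2.72 and CLV2 with 2.58. The last 3 did not differ beyond their spread over plates, since their plate means ran from 0 or near 0 to 34.7 CPM for BAM3, 32.5 CPM for CLV1 and 25.4 CPM for CLV2. In vascular-like nuclei the mean over nuclei was 69.2 CPM per kilobase for BAM1, 54.4 for CRN and 27.9 for BAM3. No order of BAM1 and CRN can be read from this, since 1 nucleus held 39.1% of the BAM1 counts and plate means ran from 85.4 to 754.5 CPM for BAM1 and from 29.0 to 437.2 CPM for CRN, before division by length.

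**Figure D1:**
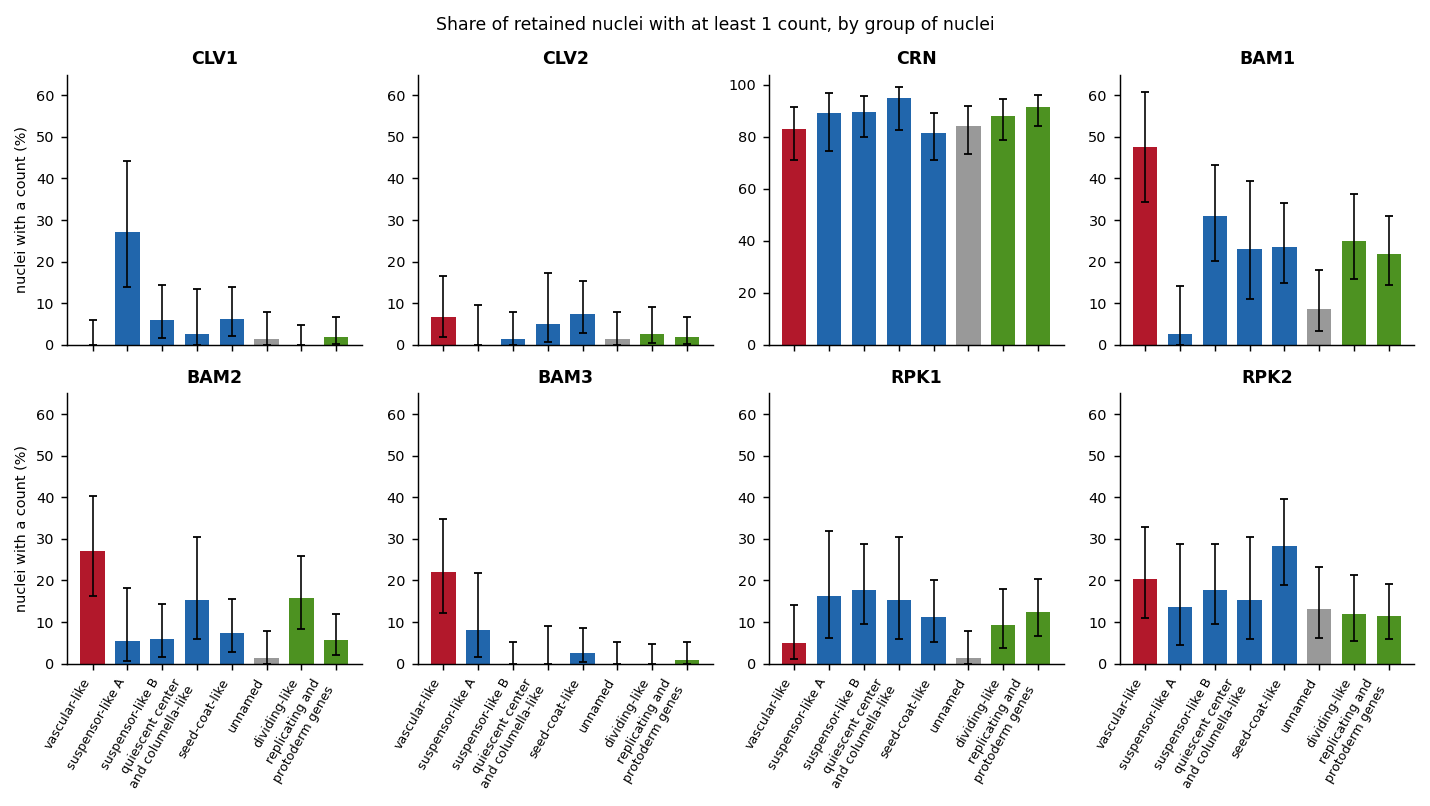
Share of retained nuclei with at least 1 count of each gene (percent), by group of nuclei, with exact 95% binomial intervals that cover counting error only; red is vascular-like, blue suspensor-like A and B, quiescent-center-and-columella-like and seed-coat-like, grey unnamed, and green the other embryo-proper-like nuclei. The CRN panel has its own axis. BAM1, BAM2 and BAM3 stand highest in vascular-like nuclei and CLV1 in suspensor-like cluster A.

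BAM3 was the member most restricted to 1 group. BAM3 senses CLE45 in the phloem lineage of roots. It had a count in 13 of 59 vascular-like nuclei (22.0%; 95% exact interval 12.3 to 34.7%) and in 1 of 181 other embryo-proper-like nuclei (0.552%; 0.0140 to 3.04%). The remaining nuclei with a count were 3 of 105 suspensor-like and 2 of 81 seed-coat-like nuclei, whose median where detected was 2.29 and 4.09 CPM, against 173.8 CPM in vascular-like nuclei. Over the 8 plates the share of vascular-like nuclei with BAM3 was 0% at the lowest, 21.6% at the median and 50.0% at the highest, against 0, 0 and 6.67% in other embryo-proper-like nuclei. It was higher in vascular-like nuclei on 7 of 8 plates, and plate 8 had no BAM3 in either group. In CPM of counts summed over the nuclei of a group on a plate, vascular-like nuclei had 94.7, 856.8, 10.4, 47.1, 194.6, 193.2, 21.1 and 0 CPM on plates 1 to 8, and other embryo-proper-like nuclei had 8.89 CPM on plate 4 and 0 on the others.

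BAM1 and BAM2 also had their highest shares in vascular-like nuclei but were found in every other named group as well. These paralogs act redundantly in anther and leaf vein development. BAM1 had a count in 28 of 59 vascular-like nuclei (47.5%; 34.3 to 60.9%) and in 42 of 181 other embryo-proper-like nuclei (23.2%; 17.3 to 30.0%). By plate the BAM1 share was 30.0% at the lowest, 50.0% at the median and 63.6% at the highest in vascular-like nuclei, against 14.8, 22.5 and 46.7% in other embryo-proper-like nuclei. It was higher in vascular-like nuclei on 8 of 8 plates, by 24.15 ± 8.70 percentage points (SD, n = 8), although the 2 ranges overlap. BAM2 had a count in 16 of 59 vascular-like nuclei (27.1%; 16.4 to 40.3%) and in 18 of 181 others (9.95%; 6.00 to 15.3%), with a higher share on 6 of 8 plates but a higher summed level on only 4 of 8. The summed BAM1 level was higher in vascular-like nuclei on 7 of 8 plates, with plate 8 the exception. Thinning each nucleus to 100000 counts left shares of 44.1% for BAM1, 20.3% for BAM2 and 20.3% for BAM3 in vascular-like nuclei. With nuclei of at least 200000 counts and 1500 features, the BAM1 share was 47.4% in vascular-like and 43.2% in quiescent-center-and-columella-like nuclei. The smaller dividing-like cluster had BAM1 in 7 of 17 nuclei (41.2%; 18.4 to 67.1%). Vascular-like nuclei had a median of 2404 features and other embryo-proper-like nuclei 2202.

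**Figure D2:**
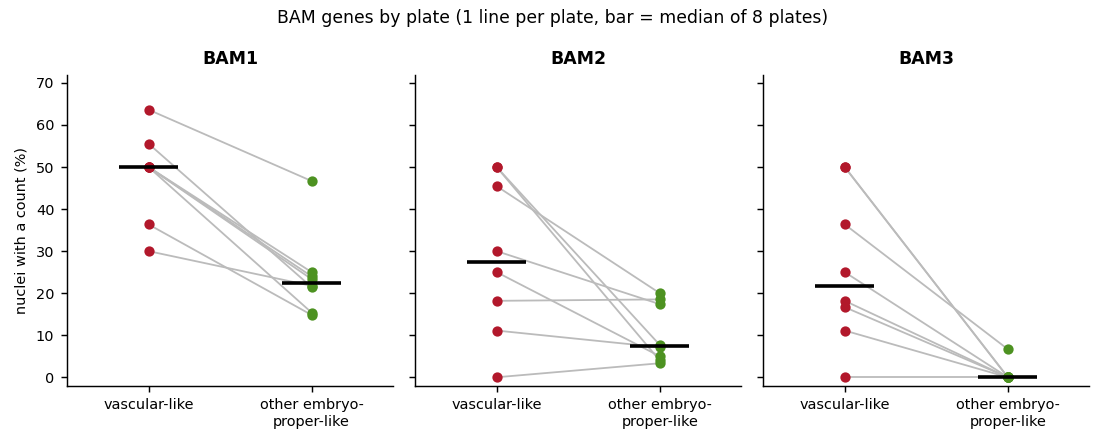
Share of nuclei with at least 1 count of BAM1, BAM2 and BAM3 (percent) in vascular-like and in other embryo-proper-like nuclei; each point is 1 plate, lines join the groups of a plate, and black bars are medians of 8 plates. The BAM1 share is higher in vascular-like nuclei on every plate and the BAM3 share on 7 of 8.

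In the count test of vascular-like nuclei against the other embryo-proper-like nuclei, no member passed. Of genes given a log2 difference of 2 in simulated data, 0% were recovered in this comparison, and 60.5% at 6. A member that did not pass may therefore still differ. Counts were summed per group and plate and tested with edgeR, with plate as a block, over genes found in at least 10% of the nuclei of both groups together. CRN, BAM1, BAM2 and RPK2 entered, and 0 of 4 were called at an adjusted p under 0.05 or at an unadjusted p under 0.05, where 1.58% of 7920 genes passed the adjusted and 12.0% the unadjusted limit (12 genes higher and 113 lower at the adjusted one). DESeq2, which called 22.1% of genes, and limma on mean log2(CPM + 1) per nucleus, which called 2.06%, called 0 of these members. The median fitted log2 difference was 0.52 over the 4 members and -1.34 over all genes tested. On the limma scale the median of all genes was 0.05 and BAM1 was 1.72 higher, with an adjusted p of 0.0842 from limma (unadjusted p = 0.00246).

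BAM3, CLV1, CLV2 and RPK1 were under the share limit and did not enter. Without that limit, BAM3 was the 1 of 8 members called by edgeR in vascular-like nuclei, with a log2 difference of 10.73 (SE 2.19, adjusted p = 0.000557), where 0.512% of 22282 genes were called. The call for BAM3 was lost without plate 2 (adjusted p = 0.124 with edgeR), in limma (log2 difference 1.89, adjusted p = 0.179) and with equal numbers of nuclei in both groups (9.92, adjusted p = 0.0722 with edgeR). Since only 1 other embryo-proper-like nucleus had BAM3 counts, the fitted size depends on the prior count and is no bound.

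CLV1, the founding receptor of the shoot meristem pathway, had no count in 59 vascular-like nuclei, which allows a share of up to 5.09%. It had counts in 14 of 105 suspensor-like nuclei (13.3%; 7.49 to 21.4%), against 2 of 240 embryo-proper-like nuclei (0.833%; 0.101 to 2.98%). Seed-coat-like nuclei also had it, in 5 of 81 (6.17%; 2.03 to 13.8%), of which 3 were on plate 7. Of the 14 suspensor-like nuclei with CLV1, 10 were among the 37 of cluster A (27.0%; 13.8 to 44.1%) and 4 among the 68 of cluster B (5.88%; 1.63 to 14.4%). The median was 2498 features per nucleus in A and 3318 in B. Over the 8 plates the CLV1 share in suspensor-like nuclei was 0% at the lowest, 4.00% at the median and 33.3% at the highest, against 0, 0 and 2.78% in embryo-proper-like nuclei. The counts came from plates 1, 2, 4 and 7, with 22.2, 33.3, 8.00 and 29.4% of suspensor-like nuclei, and plates 3, 5, 6 and 8 had none among 8 to 11 nuclei each. CLV1 was under the share limit. Without it, edgeR gave a log2 difference of 7.15 (SE 3.07, unadjusted p = 0.0199, adjusted p = 0.16), which did not pass where 7.56% of 24131 genes did.

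BAM1 separated the 2 suspensor-like clusters the other way. It had a count in 1 of 37 nuclei of cluster A (2.70%; 0.0684 to 14.2%) and in 21 of 68 of cluster B (30.9%; 20.2 to 43.3%). Mean BAM1 levels were 0.706 CPM in cluster A and 131.9 CPM in cluster B. Against embryo-proper-like nuclei, cluster A alone gave BAM1 a log2 difference of -10.74 (adjusted p = 0.00237, edgeR, 5 plates), where the median of all genes was -2.46 and 17.0% of genes were called. This split was looked at after the values were seen, and the difference between the clusters was not tested.

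With both suspensor-like clusters together, 0 of 5 members tested were called against embryo-proper-like nuclei, where edgeR called 12.6% of 9096 genes (477 higher and 668 lower). At an unadjusted p under 0.05 there were 2, beside 25.5% of all genes, and DESeq2 called 3 (CRN, BAM2 and RPK2), beside 36.8% of all genes. CRN had 9.31, 43.7 and 94.6 CPM at the lowest, median and highest plate in suspensor-like nuclei, against 24.4, 87.3 and 215.7 CPM in embryo-proper-like nuclei. The CRN level was lower in suspensor-like nuclei on 8 of 8 plates, with a log2 difference of -1.40 (SE 0.66, adjusted p = 0.192, edgeR), while the plate ranges overlap. BAM2 had 0, 0.276 and 314.8 CPM in suspensor-like nuclei, against 5.09, 27.9 and 116.1 CPM in embryo-proper-like nuclei. Its log2 difference was -5.08 (SE 2.20, adjusted p = 0.152, edgeR) and 0.03 without the plate block, so its direction turned with that choice. RPK1 had a count in 17.1% of suspensor-like against 9.58% of embryo-proper-like nuclei, and RPK2 in 16.2% against 13.8%. The RPK2 level ran opposite to its share, with a median of 7.58 against 48.5 CPM and a lower summed level in suspensor-like nuclei on 6 of 8 plates, and the fitted differences of all 5 members tested were negative. The median over the 5 members was -1.94, and over all genes -0.41.

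**Figure D3:**
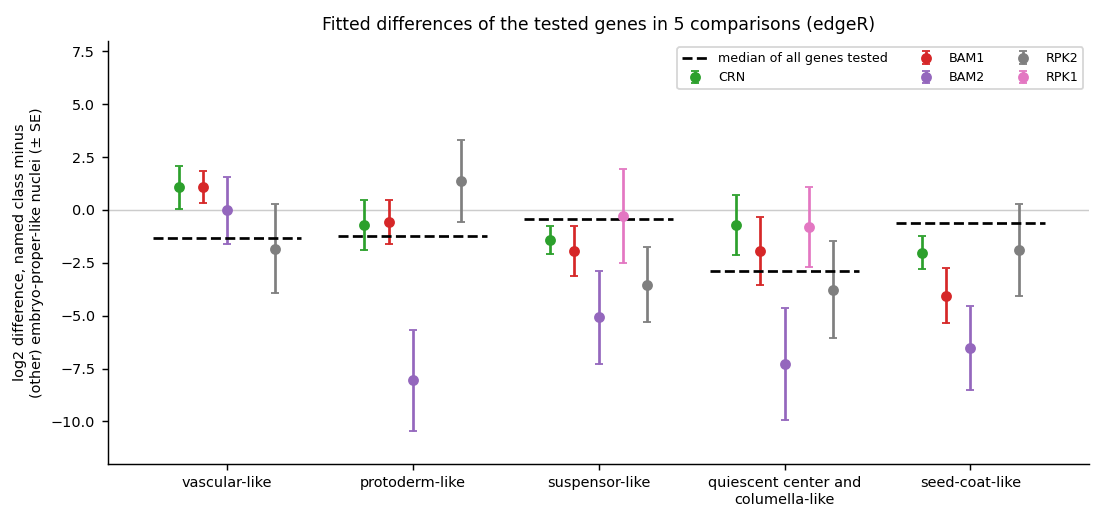
Fitted log2 differences of the members that entered each edgeR comparison (points), with standard errors worked back from the F statistic of the test. They are named group minus embryo-proper-like nuclei (the other embryo-proper-like nuclei for vascular-like and protoderm-like). Dashed lines are the medians of all genes tested. BAM2 lies lowest in 4 of 5 comparisons, and in the vascular-like comparison CRN, BAM1 and BAM2 lie above the median of all genes.

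In quiescent-center-and-columella-like nuclei, the precursors of the distal root meristem, edgeR called 1 of 5 members, BAM2, as lower than in embryo-proper-like nuclei. That count is near the background, since edgeR called 12.5% of 7959 genes (34 higher and 957 lower, the lower being 12.0%) and only 9.39% of all genes had a positive fitted difference. At an unadjusted p under 0.05 it was likewise the 1 member, beside 31.4% of all genes. BAM2 had 0, 0 and 40.4 CPM at the lowest, median and highest plate, against 5.09, 27.9 and 116.1 CPM in embryo-proper-like nuclei, and was lower on 7 of 8 plates. Plate 2 was the exception, and the ranges overlap. The BAM2 log2 difference was -7.27 (SE 2.64, adjusted p = 0.0488, edgeR), beside a median of -2.88 over all genes. The share of nuclei with BAM2 did not follow it, with 6 of 39 (15.4%) against 34 of 240 (14.2%). The call was lost without any 1 of plates 1, 4, 5, 6, 7 and 8 (adjusted p 0.101 to 0.126, edgeR) and with equal numbers of nuclei (log2 difference -2.01, adjusted p = 0.969, edgeR), which also moved the median of all genes to -0.12. BAM2 was also not called in limma, without the plate block, with 30 principal components, with stricter limits on nuclei or with non-coding genes in the clustering. Without the share limit, and with edgeR's filterByExpr in its place, BAM2 was not called (adjusted p = 0.0726 and 0.0504, edgeR) and BAM3 was the 1 member called, as lower (adjusted p = 0.0173 and 0.0112, edgeR), where 6.74 and 14.2% of genes were called. BAM3 had no count in these 39 nuclei, which allows a share of up to 7.69%. The embryo-proper-like nuclei they were compared with include the vascular-like ones, of which 13 of 59 had BAM3, so this call is not separate from the vascular-like pattern.

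A protoderm-like group, the outer layer of the embryo, appeared only when the clustering resolution was set to 2, and held 74 nuclei. The second of its 2 clusters had CYP709B1 and TT7, which also led seed-coat-like nuclei, among its 10 leading genes. The same 10 held PEL3, ahead of TT7, and KAN, which was also among the 10 leading genes of the first cluster. BAM2 had 0, 0 and 0.838 CPM at the lowest, median and highest of 7 plates in protoderm-like nuclei, against 5.97, 15.8 and 149.7 CPM in the other embryo-proper-like nuclei. The 2 groups did not overlap, as for 0.999% of all genes in this direction. The BAM2 log2 difference was -8.06 (SE 2.38, adjusted p = 0.0990, edgeR), and the median of all genes was -1.23. None of the 4 members tested was called, where edgeR called 0.688% of 7709 genes, but BAM2 had an unadjusted p under 0.05, as did 9.38% of genes, and was called by DESeq2, as were 18.5%. The BAM1 share was 13.5% (10 of 74) in protoderm-like nuclei against 32.2% (59 of 183) in the others, and was lower in protoderm-like nuclei on 7 of 7 plates, where the shares were 9.09, 14.3 and 20.0% against 25.0, 28.0 and 34.8%. These BAM1 shares did not overlap, but how many of all genes had shares without overlap was not counted. The summed BAM1 level was lower on only 5 of the 7 plates, and its ranges overlap. BAM3 had no count in 74 protoderm-like nuclei, which allows a share of up to 4.05%, and counts in 14 of 183 others (7.65%). These others include the 57 vascular-like nuclei of this resolution. At the main resolution vascular-like nuclei had the highest BAM1, BAM2 and BAM3 shares. The BAM differences given here are therefore not separate from the vascular-like ones, and a comparison without vascular-like nuclei was not run. CLV1 was found in 3 of 74 protoderm-like nuclei (4.05%), at a median of 2.93 CPM where detected, and in 0 of 183 others, which allows up to 1.64%.

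Seed-coat-like nuclei had lower CRN, BAM1 and BAM2 levels than embryo-proper-like nuclei on 8 of 8 plates. How many of all genes were lower on every plate was not counted, here or in the other comparisons. The BAM1 share followed less closely. It was 23.5% (19 of 81) in seed-coat-like nuclei, and lower than in embryo-proper-like nuclei on 7 of 8 plates, with 46.2 against 21.1% on plate 7. BAM1 had 0, 8.34 and 79.7 CPM at the lowest, median and highest plate, against 54.9, 118.1 and 245.2 CPM in embryo-proper-like nuclei, and the ranges overlap. With edgeR 0 of 4 members tested were called, where 4.44% of 9444 genes were (155 higher and 264 lower), but 3 had an unadjusted p under 0.05, as did 18.4% of genes. Their log2 differences were -2.02 (SE 0.79, adjusted p = 0.157) for CRN, -4.06 (SE 1.31, adjusted p = 0.0828) for BAM1 and -6.52 (SE 1.99, adjusted p = 0.0655) for BAM2, beside -0.61 for the median of all genes. DESeq2 called these 3, beside 26.5% of genes, and limma called BAM1 and BAM2, beside 23.4%. The second seed-coat-like cluster had 17 of its 21 nuclei on plate 4 and an endosperm marker sum of 279.8 CPM, against 22.6 CPM in the first. Without it edgeR called BAM1 (-5.32, adjusted p = 0.0337) and BAM2 (-8.54, adjusted p = 0.0115), beside 6.97% of genes. RPK2 had counts in 23 of 81 seed-coat-like nuclei (28.4%; 18.9 to 39.5%) against 33 of 240 embryo-proper-like nuclei (13.8%; 9.66 to 18.8%), with a higher share on 5 of 8 plates. Its summed level did not follow, with a median of 38.1 against 48.5 CPM and a lower level in seed-coat-like nuclei on 5 of 8 plates, and 4 of 4 fitted differences were negative.

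For RPK1 and CLV2 the counting intervals of the named groups overlap, but overlap does not show that the groups are equal, and these intervals leave out the spread over plates. RPK1 shares were 17.1% in suspensor-like, 15.4% in quiescent-center-and-columella-like, 12.4% in the cluster with replication and protoderm genes, 11.1% in seed-coat-like, 9.21% in dividing-like and 5.09% in vascular-like nuclei, and the exact intervals of these groups all overlap. CLV2, the partner of CRN, had counts in 4 of 59 vascular-like nuclei (6.78%), 6 of 81 seed-coat-like nuclei (7.41%) and 1 of 105 suspensor-like nuclei (0.952%). All 18 nuclei with CLV2 also had CRN, where 15.45 were expected from the shares within each cluster and plate, CRN being found in most nuclei. Of the unnamed nuclei 73.9% had no member other than CRN, against 28.8% of vascular-like nuclei, but their median of 1653 features was also the lowest. They came from unlike clusters. The larger (50 nuclei, median of 1485 features) had none in 82.0%, and the smaller (19 nuclei, median of 2766 features) in 52.6%.

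CRN differed from the rest in the 210 discarded wells, which had a median of 64693 counts and 649 features. CRN had a count in 154 discarded wells (73.3%; 66.8 to 79.2%) and in 467 of 534 retained nuclei (87.5%; 84.3 to 90.1%). In pooled counts it stood at 382.7 CPM in discarded wells and 59.5 CPM in retained nuclei, a ratio of 6.43. The median ratio over 9546 genes was 0.275, and 25 genes, CRN itself included, had a ratio at or above that of CRN. BAM1, in contrast, had a count in 3.81% of discarded wells against 23.6% of retained nuclei. The CRN transcript holds a run of 37 alternating T and G bases at positions 569 to 605, before the coding start at position 1164. Only AT2G30540 and AT5G47540 among other annotated genes have such a run of at least 31 bases, and both were also widely found in discarded wells, in 61.4 and 45.7%, against 70.0 and 50.9% of retained nuclei. AK-LYS1, which overlaps CRN, was found in 2.86% of discarded wells against 24.3% of retained nuclei. The part of the repeat in CRN counts was not tested.

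**Figure D4:**
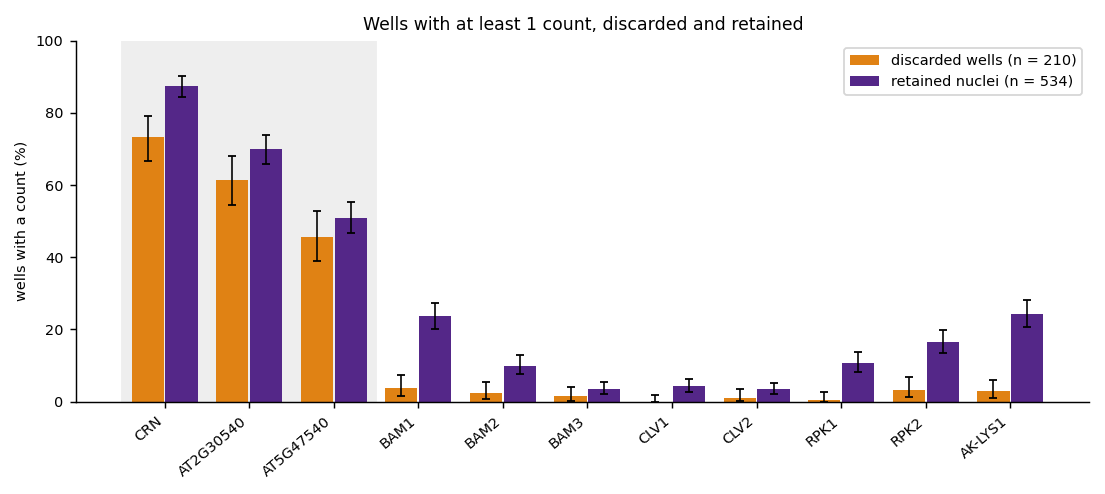
Share of wells with at least 1 count (percent) among 210 discarded wells (orange) and 534 retained nuclei (purple), with exact 95% binomial intervals that cover counting error only; the grey area marks the genes with a long run of alternating T and G bases. CRN is found in 73.3% of discarded wells, and the other members in at most 3.81%.

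The CRN share also differed between plates, at 64.4 to 64.6% of retained nuclei on plates 7 and 8 and 90.4 to 100% on the others. Over 69 groups of at least 3 nuclei, by cluster and plate, the gene whose mean log2(CPM + 1) was most like that of CRN was AT2G30540 (Pearson's r = 0.72 among 9545 genes), followed by AT5G19800 (r = 0.47). For BAM1 they were HTA8 (0.64) and FHIT (0.63), for RPK1 ADK1 (0.66) and AT3G06610 (0.65), and for RPK2 PAI1 (0.52) and ATS1 (0.49). These groups share plates and depth, so the values are descriptions only. BAM2, BAM3, CLV1 and CLV2 were under the 10% of nuclei needed.

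Other genes of the pathway came from a list of CLE ligands, further receptors and downstream genes, of which 46 had a matching symbol. Of 31 ligand genes, 25 had a count in retained nuclei but 1, CLE17, reached 10% of them. CLV3 itself had no count. All 9 further receptors and all 6 downstream genes had a count. In the edgeR comparisons 8 or 9 genes of the list could be tested, and CLE17 in quiescent-center-and-columella-like nuclei was the 1 called (log2 difference -7.06, SE 2.48, adjusted p = 0.0410), where 12.5% of all genes were called and their median was -2.88, so that 1 of 8 is near the background. The CLE17 call was lost without any 1 of plates 1, 2, 4, 5, 7 and 8 (adjusted p 0.0684 to 0.110, edgeR). SKM1, a receptor kinase known from pollen tube growth, was named after its values were seen because it had the BAM3 pattern. It had counts in 11 of 59 vascular-like nuclei (18.6%) and in 0 of 181 other embryo-proper-like nuclei, which allows up to 1.66%. Without the share limit its log2 difference was 10.10 (SE 2.22, adjusted p = 0.00239, edgeR), and the SKM1 call was lost without plate 2 (adjusted p = 0.140, edgeR) and in limma (adjusted p = 0.286). WUS had counts in 4 nuclei.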

How the data were processed

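Nuclei were sorted into 8 plates of 93 wells and sequenced as Smart-seq2 libraries with single-end reads of 50 bases. Per the study's methods, the authors trimmed reads with cutadapt (2.6 in the submitters' processing notes) and ran Kallisto on the transcripts of TAIR10, and the deposited values are estimated counts per gene, given as whole numbers; how they were summed and rounded is not given in the sources used here. Smart-seq2 reads carry no molecular identifier and no strand, so intervals and limits cover counting error only. Plate totals were 21257765 to 50998340 counts.

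The members and lists were chosen with earlier results of these data known. Wells with at least 100000 counts and 1000 features were retained. Clustering (scanpy 1.11.5) used the 1000 most variable of 13573 genes, without members and pathway genes, with 15 principal components, 15 neighbours and resolution 1. Doublets were not called, since nuclei were sorted singly into wells. A cluster was named where markers were on average at least 0.5 higher (log2) and at least 3 of them were found in at least 10 percentage points more nuclei. Counts were summed per group and plate for plates with at least 3 nuclei of each group and tested with edgeR 4.0.16 (quasi-likelihood, Benjamini-Hochberg adjustment over all genes tested). An SE given with an edgeR difference is the absolute difference divided by the square root of its F statistic. It is an approximation, and not an error estimated for the difference itself. The plate was a block because each plate used holds nuclei of both groups. The p-values therefore measure how far the difference between groups varies from plate to plate, which may be technical. DESeq2 1.42.0, limma 3.58.1, other filters, other clusterings, equal numbers of nuclei and leaving out each plate were alternatives. Scripts were tested on simulated data, in which 200 genes per comparison were given a set log2 difference. At a difference of 2, the share recovered was 1% (suspensor), 0% (vascular), 0% (protoderm), 0.5% (quiescent center and columella) and 2% (seed coat). At 6 it was 74, 60.5, 51.5, 36 and 79.5%, in the same order. A member that was not called may therefore still differ by 2 or more. Not all of the 8 members are described by level or share in each comparison. A fitted difference is given for members where the unadjusted p was under 0.05, and for pathway genes where the adjusted p was. The 2 most similar genes are given for members found in at least 10% of nuclei. BAM3, CLV1 and SKM1 without the share limit are exceptions chosen after their values were seen. Shares have exact Clopper-Pearson 95% intervals, and a count of 0 allows a share of 3 nuclei. Coordinates are RefSeq, TAIR10.1.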

Additional observations from a re-analysis of the deposited data

Results flagged for a closer look

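CLV2 had a mean of 25.36 CPM per retained nucleus on plate 1, a level that stood apart from the other 7 plates, which had at most 10.5 CPM. It came from 3 of 80 nuclei, while the CLV2 share on that plate was 3.75%, within the range of the others. Among 16 groups of 8 plates looked at in this way, chance flags about 1 in 20.

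Discarded wells, which enter no comparison of cell groups, held counts of 4 members above the limit that a count of 0 allows. These were CRN in 73.33% of discarded wells, BAM1 in 3.81%, RPK2 in 3.333% and BAM2 in 2.381%.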

How the results depend on the processing

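Comparisons are given in the order suspensor-like, vascular-like, protoderm-like, quiescent-center-and-columella-like (QC) and seed-coat-like. Counts of all genes called were 1145, 125, 53, 991 and 419. They were 3343, 1747, 1430, 3941 and 2503 with DESeq2. Limma gave 3835 (suspensor), 142 (protoderm), 297 (QC) and 2208 (seed coat), and without a filter 3448, 35, 2, 36 and 958. With no filter edgeR gave 1825 (suspensor), 1537 (QC) and 656 (seed coat), and with filterByExpr 1948, 2444 and 765. Without the replicate block (plate) it gave 30 (vascular), 33 (protoderm) and 213 (QC), and with equal numbers of nuclei 20, 11 and 15. QC had 325 with 30 components, stricter limits gave 29 (protoderm) and 166 (QC), non-coding genes in the clustering gave 81 (vascular) and 416 (QC), and leaving out cluster 9 gave 639 (seed coat).

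Members called were 0, 0, 0, 1 and 0. DESeq2 called 3 (suspensor), 1 (protoderm), 2 (QC) and 3 (seed coat), beside 36.8, 18.5, 49.5 and 26.5% of all genes. In suspensor-like nuclei 1 was called, but not the same gene. It was BAM3 with no filter or filterByExpr, beside 7.56 and 10.4% of all genes. Wherever BAM3 was called as lower, the embryo-proper-like nuclei included the vascular-like ones, in which BAM3 was mostly found. BAM2 was called with 30 components, stricter limits or non-coding genes, beside 14.1, 12.5 and 14.3%, and BAM1 without cluster 8, beside 17.0%. In vascular-like nuclei 1 (BAM3) was called with no filter or filterByExpr, beside 0.512 and 0.806% of all genes. Without the replicate block 1 was called in protoderm-like and 0 in QC nuclei, beside 0.428 and 2.68% of all genes. With no filter or filterByExpr the 1 called in QC nuclei was BAM3 in place of BAM2, beside 6.74 and 14.2% of all genes. QC also had 0 with limma (filtered or not), equal numbers, 30 components, stricter limits and non-coding genes. Seed-coat-like nuclei had 2 (BAM1 and BAM2) with limma or without cluster 9, beside 23.4 and 6.97% of all genes. They had 2 (BAM1 and BAM3) with no filter and 3 (BAM1, BAM2 and BAM3) with filterByExpr, beside 2.6 and 3.93%. With resolution 2 there was 1 (BAM1), beside 5.36%, and with stricter limits or non-coding genes 1 (BAM2), beside 4.96 and 3.27%. BAM2 in suspensor-like nuclei turned from -5.08 with to 0.0268 without the replicate block. Causes were not tested.

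Leaving out each plate gave 869 to 1117, 60 to 118, 26 to 64, 515 to 1005 and 234 to 425 genes, and 0 to 0, 0 to 0, 0 to 0, 0 to 1 and 0 to 1 members. Without plate 4 BAM2 was called in seed-coat-like nuclei (edgeR adjusted p = 0.0473), beside 4.5% of all genes.

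With equal numbers of nuclei the median log2 difference of all genes was 0.71, 0.16, -0.29, -0.12 and 0.98, against -0.41, -1.34, -1.23, -2.88 and -0.61, and genes higher and lower were 731 and 309, 15 and 5, 2 and 9, 13 and 2, and 235 and 59. Limma gave 2675 and 1160, 61 and 102, 8 and 134, 159 and 138, and 1861 and 347. Members with their highest share in vascular-like nuclei were 3, and 4 after thinning or under stricter limits, but the added member was not the same. After thinning it was CLV2 (5.09%, against 4.94% in seed-coat-like nuclei). Under stricter limits it was RPK2 (31.6%, against 27.6% in seed-coat-like nuclei). The limits are few nuclei per plate, reads without molecular identifiers and members found in few nuclei.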

Other observations

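Beyond the receptors, CLE25, a ligand gene named after its values were seen, had counts in 9 of 59 vascular-like nuclei (15.3%) and in 4 of 181 other embryo-proper-like nuclei (2.21%). CLE17 went the other way, with 5.09% of vascular-like against 23.2% of other embryo-proper-like nuclei. KAPP, a phosphatase that binds receptor kinases, had counts in 36.2% of suspensor-like against 10.4% of embryo-proper-like nuclei. None of these shares was tested.

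Members were also found together in single nuclei. BAM1 and BAM2 were both found in 28 nuclei, where 19.2 were expected from their shares within each cluster and plate, and BAM1 and RPK2 in 37, where 24.3 were expected. Nuclei with both BAM1 and BAM2 had a median of 3424 features, against 2469 over all retained nuclei, and the part of depth in this was not tested. CLV1 and CLV2 were never found together, where 0.772 nuclei were expected.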
